A study of Mus musculus with 4 samples.

Results

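The cells described here were the monocytes of spleens from BALB/c mice carrying BCL1, a syngeneic B cell lymphoma. They were the barcodes that held at least 4 UMIs over at least 2 of the 5 genes F13a1, Fn1, Ccr2, Ms4a6c and Ly6c2, with no UMI of the T cell receptor subunits Cd3d, Cd3e or Cd3g and no more than 2 UMIs of the macrophage complement genes C1qa, C1qb and C1qc together. Barcodes with a UMI of Xcr1, a dendritic cell receptor, were also left out. A UMI is a molecular tag that counts 1 captured transcript. This gave 112 monocytes among the 1770 barcodes with 300 to 3000 detected genes, of the 3198 barcodes in the table. The rule used counts from the same barcodes, so what separates these cells from other cells is given as a description, with no test.

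Droplet sequencing (Drop-seq) was run on 1 library for each of 4 treatments. Each mouse had been given 10000 BCL1 cells. The control library came from mice given an isotype control antibody. The anti-CD20 library came from mice treated at day 4 with an antibody to CD20, a surface protein of B cells and of the lymphoma. The anti-CD27 library came from mice treated from day 5 to day 8 with an agonistic antibody to CD27, a costimulatory receptor of T cells and NK cells, and the combination library from mice given both antibodies. Spleens were taken at day 13 per the labels. The study's single-cell methods give an earlier schedule, so the timing is uncertain. The mice were adult females, and the number pooled in each library was not given in the sources used here. The host kept its own immune cells, and lymphoma cells were present in the same spleens.

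Classical monocytes carry the surface protein Ly-6C and the chemokine receptor CCR2, through which they leave the bone marrow and enter inflamed tissue and spleen. They bear activating Fcγ receptors, which bind the constant part of antibodies and let myeloid cells engulf antibody-coated targets. Interferon-γ, made mainly by T cells and NK cells, acts on them through its receptor and induces guanylate-binding proteins, immunity-related GTPases, the T cell-attracting chemokines CXCL9 and CXCL10, and antigen presentation genes.

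With 1 library per treatment there was no replicate, so no difference between treatments was tested, and each 95% interval below covers counting error only. It does not cover the spread between mice. The libraries held 340, 501, 497 and 432 kept barcodes with isotype control first, then anti-CD20, then anti-CD27 and the combination last, which is the order of every set of 4 values below. Kept barcodes had a median of 1031, 1379, 1209 and 1395.5 UMIs. No barcode sequence was shared between libraries. The monocytes summed to 10272, 25862, 110733 and 141773 UMIs, with a median per cell of 1215.5, 2120, 2098 and 2462.5. Levels are given as CPM, the UMIs of a gene scaled to equal totals of these monocyte sums, on which 1 UMI was worth 97.4, 38.7, 9.03 and 7.05 CPM. A gene with no UMI in the 8 isotype control monocytes could therefore lie as high as 292 CPM, the level of 3 UMIs.

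Monocytes were a larger share of the barcodes in both libraries that included anti-CD27. They were 8 of 340 barcodes with isotype control, or 2.35% (exact binomial 95% interval 1.02 to 4.58%). With anti-CD20 they were 11 of 501, or 2.20% (1.10 to 3.90%). With anti-CD27 they were 43 of 497, or 8.65% (6.33 to 11.5%), and with the combination 50 of 432, or 11.6% (8.71 to 15%). The intervals of the 2 libraries with anti-CD27 did not overlap those of the 2 without it.

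Anti-CD27 exceeded isotype control by 6.30 percentage points (Newcombe 95% interval 3.20 to 9.33), and the combination exceeded anti-CD20 by 9.38 points (6.21 to 12.9). These 2 comparisons have no library in common. The combination differed from anti-CD27 by 2.92 points (-0.956 to 6.92) and anti-CD20 from isotype control by -0.157 points (-2.58 to 1.89), and both intervals include 0. A stricter choice of monocytes narrowed the first 2 differences. With at least 6 UMIs over at least 3 marker genes, anti-CD27 minus isotype control was 2.57 points (-0.0498 to 5.03). Without barcodes that held 2 or more UMIs of another cell type's markers, which left 4, 3, 10 and 7 monocytes, it was 0.836 points (-1.19 to 2.64) and the combination minus anti-CD20 was 1.02 points (-0.396 to 2.75). These 3 intervals reach below 0. All are shares of sequenced barcodes, and the number of cells per spleen was not measured.

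The share also depends on how many B lineage barcodes, lymphoma included, each library held. Among barcodes free of B cell genes, monocytes were 7 of 105 (6.67%), 9 of 232 (3.88%), 35 of 267 (13.1%) and 50 of 420 (11.9%). On this denominator the combination still exceeded anti-CD20, by 8.03 points (3.70 to 11.9), whereas the interval of anti-CD27 minus isotype control, 6.44 points (-0.919 to 12.1), reached below 0. Mature neutrophils, the other myeloid cells counted, were 1.47%, 0.998%, 4.02% and 8.33% of kept barcodes. Macrophages with C1q genes were 1.47%, 1.40%, 1.01% and 3.47%.

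**Figure D1:**
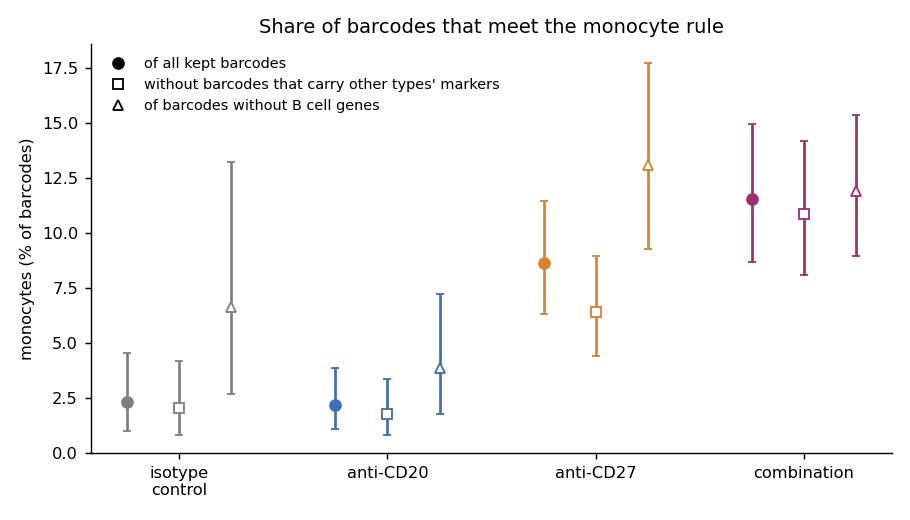
Monocytes as a percentage of barcodes in each of the 4 libraries, with exact binomial 95% intervals as bars, for all kept barcodes (filled circles), without the barcodes that carry other cell types' genes (open squares) and as a share of barcodes free of B cell genes (open triangles). The filled circles lie at 2.35% and 2.20% without anti-CD27 and at 8.65% and 11.6% with it.

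Some of the 112 members carried genes of other cells. Limits on such genes, set after the members had been seen, marked 17 barcodes, of which 1, 2, 11 and 3 lay in the 4 libraries. The neutrophil granule genes Camp, Ltf, Ngp and Lcn2 marked 5, of which 4 were in the anti-CD27 library, and 1 anti-CD27 barcode alone held 2032 of the 2547 UMIs of these genes. Genes of B cells marked 5, those of NK cells 5, and those of basophils and plasmacytoid dendritic cells 1 each. The remaining 95 monocytes (7, 9, 32 and 47) are called monocytes without other cells' genes. Their shares were 2.06%, 1.80%, 6.44% and 10.9%, so that anti-CD27 exceeded isotype control by 4.38 points (1.57 to 7.10) and the combination exceeded anti-CD20 by 9.08 points (6.04 to 12.5). The combination then also exceeded anti-CD27, by 4.44 points (0.828 to 8.21), where the interval over all members had included 0. A doublet caller, Scrublet, marked 2 of the 112, both with anti-CD27. Another 7 members differed by 1 base from another kept barcode, and 4 of these from a deeper one.

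The rule's own genes were uneven among the members. Ly6c2, which encodes a form of Ly-6C, was found in 94.6% of them, Ccr2 in 85.7%, and Ms4a6c, a membrane protein of myeloid cells, in 84.8%. F13a1, the A chain of coagulation factor XIII, was found in 33.9%, and Fn1, fibronectin, in 23.2%. Across the libraries Ly6c2 stood at 7885.5, 3248, 4479 and 5981 CPM and F13a1 at 1460, 851, 253 and 458.5 CPM, both highest in the isotype control monocytes. The sum over the 5 genes ran from 4 to 136 UMIs with a median of 17.5. At the edge of the rule, 6 members had a sum of 4, of which 1 held a UMI of Lyz2, the lysozyme of monocytes, macrophages and neutrophils. In contrast, 80 of the 81 members with a sum of 10 or more held Lyz2, with a median of 43 Lyz2 UMIs. Just outside, 15 barcodes had a sum of 3, and 8 of these held Lyz2. Of all 112 members, 16 had no Lyz2 UMI.

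The label of classical monocyte was checked on 16 markers that the rule did not use. Summed, they stood at 48481, 29503, 27977 and 30549 CPM in the monocytes of the 4 libraries. Over all libraries the sum was 30107 CPM, against 7102 CPM in C1q macrophages, 13994 in mature neutrophils, 2189 in conventional dendritic cells and 4310 in T cells. Lyz2 gave 14887 CPM, Plac8, a small protein abundant in myeloid cells, 6354, and Ly6c1, the sister gene of Ly6c2, 3090. Csf1r, the receptor for the growth factor CSF1, gave 267, Cd14, the lipopolysaccharide co-receptor, 17.3, and Vcan, a matrix proteoglycan, 41.6. Markers of patrolling non-classical monocytes summed to 769 CPM, with Fabp4 at 0, and C1q macrophage markers to 364 CPM against 16728 in C1q macrophages. The cells thus matched the classical monocyte list by its levels, with Cd14 and Vcan near the bottom of it.

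**Figure D2:**
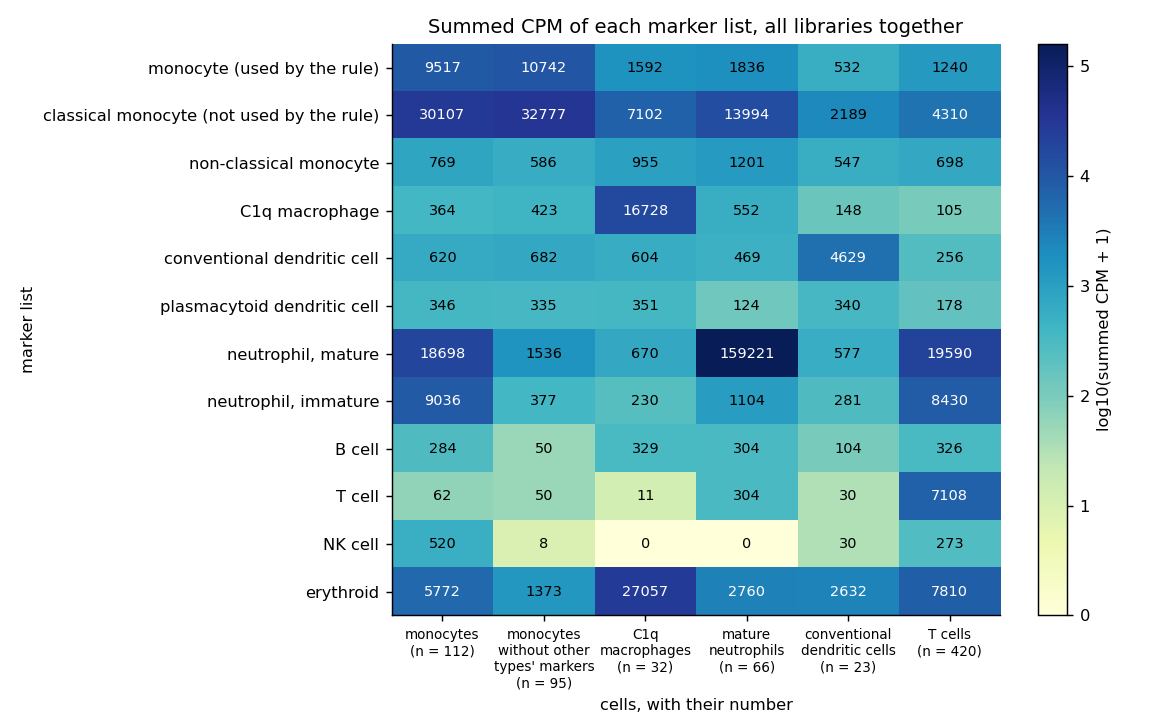
Heat map of the summed level in CPM of 12 marker lists (rows) in 6 groups of cells (columns), where each column pools the 4 libraries. The classical monocyte list reached 30107 CPM in the monocytes, and the mature neutrophil list fell from 18698 CPM in all monocytes to 1536 CPM without other cells' genes.

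Neutrophil genes were part of what the members carried, and they were unevenly spread over the libraries. The 8 mature neutrophil markers summed to 876, 464, 41081 and 5833 CPM, and the 8 immature ones to 292, 38.7, 21746 and 1383 CPM. Among the 95 monocytes without other cells' genes the sums over all libraries were 1536 and 377 CPM. Haemoglobin and other erythroid genes stood at 1850, 4137, 12481 and 1115 CPM, and 1245 of their 1382 UMIs in the anti-CD27 library lay in 1 barcode. Over all libraries they stood at 5772 CPM in the 112 monocytes and at 1373 CPM in the 95. Several values below are therefore also given without the 17 barcodes. The part that neutrophil or erythroid RNA plays in the other values was not tested.

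Set beside the other myeloid cells, and for the 95 monocytes without other cells' genes, the monocytes held S100a4, a calcium-binding protein of motile cells, at 1160 CPM against 11 in C1q macrophages. Itgam, the integrin subunit CD11b, stood at 335 against 11 CPM. The macrophages in turn held Slc40a1, the iron exporter ferroportin, at 1778 CPM against 8, Vcam1, an adhesion protein, at 1877 against 33, and Hmox1, the haem-degrading enzyme, at 1328 against 71. Conventional dendritic cells held Irf8, a transcription factor of their lineage, at 2159 CPM against 255, and Cst3, a cysteine protease inhibitor, at 19979 against 2378. Neutrophils held Cxcr2, their main chemokine receptor, at 4527 CPM against 42. These values describe how the groups were drawn and were not tested.

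In the monocytes of both libraries with anti-CD27, the list of interferon-γ (IFN-γ) response genes was high. The 32 listed genes of the IFN-γ response summed to 60, 107, 1539 and 1997 UMIs, or 5841, 4137, 13898 and 14086 CPM. The 2 libraries with anti-CD27 were close to each other, and both lay above the 2 without it. The log2 ratio of the sums was 1.25 (95% counting interval 0.88 to 1.65) for anti-CD27 against isotype control and 1.77 (1.49 to 2.06) for the combination against anti-CD20. It was 0.02 (-0.08 to 0.12) for the combination against anti-CD27. Without the 17 barcodes the first 2 ratios were 1.73 (1.30 to 2.19) and 1.80 (1.48 to 2.13), and the last was -0.20 (-0.31 to -0.10), with the combination below anti-CD27. The list also holds Ifngr1, Ifngr2 and Jak2, genes of the receptor and its signalling. Ly6e alone held 686 UMIs in the 95 monocytes without other cells' genes, where the list had 46, 84, 1254 and 1976. The list without Ly6e was not summed.

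Counting genes by size of change gives the same picture with a limit set by depth. Of the 28 listed genes with at least 5 UMIs in the monocytes of the anti-CD27 and isotype control libraries together, 10 were at least 2-fold higher with anti-CD27 and 1 was at least 2-fold lower. Over all 4393 genes of that depth, 3.62% were at least 2-fold higher and 23.8% at least 2-fold lower. In the combination against anti-CD20, 18 of 29 listed genes were higher and 3 lower, against 9.78% higher and 17.1% lower over all 5386 genes. A gene at 0 in the second library counted as higher only where a level of 3 UMIs there would still give 2-fold, which took 65 UMIs with anti-CD27 and 33 with the combination. Shallow genes at 0 there could thus not count as higher. They could readily count as lower, since 1 UMI was worth 97.4 CPM with isotype control and 9.03 CPM with anti-CD27. The shares lower over genes with at least 5 UMIs therefore depend on depth. Over genes with at least 20 UMIs, 14.9% were higher and 12.4% lower in the first comparison. In the second these were 16.9% and 8.42%. The listed genes had a median log2 ratio of 2.40 and 3.05 with a pseudocount of 10 CPM, against 0.14 and 0.10 over all genes. With genes at 0 set to that bound, the medians were -0.04 and 1.25, against -1.21 and -0.45, because 14 listed genes were at 0 in the second library of each comparison.

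A scaling by TMM factors, which rest on a trimmed mean of the genes' ratios, moved every log2 ratio of anti-CD27 against isotype control up by 1.0, of the combination against anti-CD20 up by 0.43, of anti-CD20 against isotype control up by 0.46, and of the combination against anti-CD27 down by 0.11. The IFN-γ list then stood at 2.25 and 2.20 in the 2 main comparisons. Leaving haemoglobin, mitochondrial and ribosomal protein genes out of the totals instead moved these comparisons up by only 0.027 and 0.002. Of the 4393 genes with at least 5 UMIs, 1620 had 0 UMIs with isotype control. How far such sparse counts shaped the TMM factors was not tested. A ratio that does not depend on any scaling is that of 2 lists within a library. For each UMI of 30 interferon-induced antiviral genes the monocytes held 0.488, 0.332, 1.25 and 1.12 UMIs of the IFN-γ list. This ratio was higher with anti-CD27 than with isotype control by 1.36 on the log2 scale (0.99 to 1.76) and with the combination than with anti-CD20 by 1.76 (1.48 to 2.05).

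Cell by cell, the IFN-γ list took a median of 0.531% of a monocyte's UMIs with isotype control (range 0.189 to 1.16%) and 0.377% with anti-CD20 (0.0867 to 0.938%). With anti-CD27 the median was 1.10% (0 to 3.43%) and with the combination 1.07% (0.115 to 3.76%). The ranges overlapped at their lower ends. Their upper ends rest on 8, 11, 43 and 50 cells and were not compared, since more cells reach further. Cells of a library are not replicates of a treatment.

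**Figure D3:**
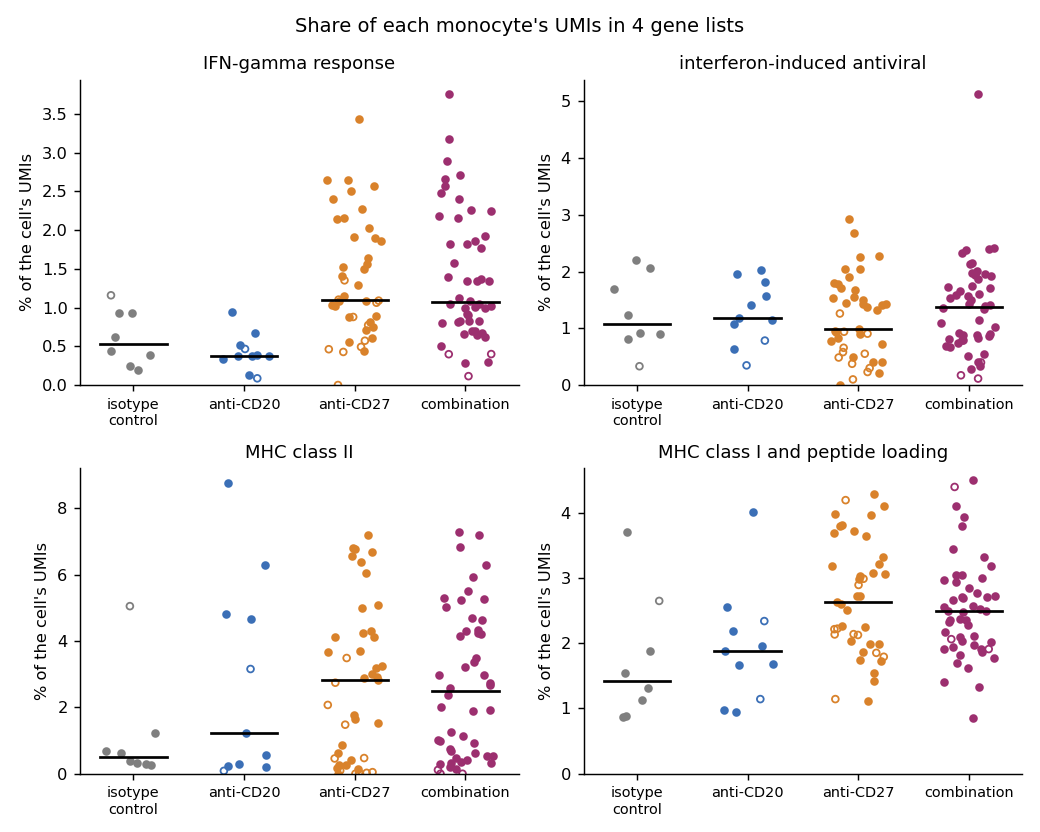
Percentage of each monocyte's UMIs in 4 gene lists (IFN-γ response, antiviral, MHC class II and MHC class I), with 1 point per cell, open circles for barcodes with other cells' genes and a black bar at the median of each library. The IFN-γ medians are 0.531%, 0.377%, 1.10% and 1.07%, and the antiviral medians 1.08%, 1.18%, 0.989% and 1.38%.

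Of the chemokine genes of the response, Cxcl9 had no UMI in the monocytes of the libraries without anti-CD27, and Cxcl10 had few. Cxcl9, which encodes a T cell-attracting chemokine, had 0, 0, 223 and 175 UMIs, or 2013.9 CPM with anti-CD27 and 1234 CPM with the combination. Against a level of 3 UMIs per library this was at least 6.90-fold higher with anti-CD27 than with isotype control and at least 10.6-fold higher with the combination than with anti-CD20. It was found in 18 of 43 anti-CD27 monocytes (41.9%) and 23 of 50 combination monocytes (46.0%), against 0 of 8 and 0 of 11. In T cells of the same libraries, which should not make it, it was found in 0%, 0.8%, 3.54% and 1.42%, at median depths of 1171, 1254, 1465 and 1579 UMIs. After thinning each cell to 500 UMIs the 2 monocyte shares were 35.0% and 30%.

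Cxcl10, a chemokine of the same receptor, had 2, 0, 50 and 68 UMIs, and its log2 ratio with anti-CD27 was 1.21 (-0.71 to 4.30), an interval that holds 0. With the combination it was at least 4.14-fold higher than with anti-CD20.

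By their CPM the GTPase genes below also stood higher in the 2 libraries with anti-CD27 than in the 2 without it, though not each beyond counting error. Iigp1, an immunity-related GTPase, had 0, 0, 89 and 214 UMIs, at least 2.75-fold higher with anti-CD27 and at least 13.0-fold higher with the combination. It was found in 55.8% and 72.0% of monocytes of those 2 libraries, against 13.3% and 20.6% of T cells, and in 30% and 34.0% of monocytes after thinning, against 3.67% and 10.4% of T cells. Gbp2b, a guanylate-binding protein chosen by the rule on the largest ratios, had 1, 0, 104 and 168 UMIs, with a log2 ratio of 3.27 (0.76 to 8.59) with anti-CD27 and at least 10.2-fold with the combination. Gbp2 had 1, 0, 35 and 100 UMIs, with a log2 ratio of 1.70 (-0.87 to 7.04) with anti-CD27, an interval that holds 0, and was at least 6.08-fold higher with the combination.

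Gbp7 had 2, 0, 91 and 127 UMIs, a log2 ratio of 2.08 (0.18 to 5.15) with anti-CD27 and at least 7.72-fold with the combination. Gbp4 had 1, 2, 49 and 101 UMIs, with log2 ratios of 2.18 (-0.36 to 7.52) and 3.20 (1.31 to 6.27). Guanylate-binding proteins form a multigene family, so reads may have been split between close copies. In the T cells Gbp4 and Gbp7 were found in 29.3% to 53.9% of cells, so these 2 genes did not set monocytes apart.

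Promoters of 5 genes of the IFN-γ list were read to show the letters that lie before their start sites. The RefSeq sequences on GRCm38.p6 are the 250 bases before the start, written 5′ to 3′ on the gene's strand. Capitals mark matches on either strand to GAAANNGAA, letters of the interferon-stimulated response element, or to TTCNNNGAA, the core of the gamma-activated sequence, 2 motifs that do not contain each other.

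Gbp2, chr3:142620413-142620662, plus strand: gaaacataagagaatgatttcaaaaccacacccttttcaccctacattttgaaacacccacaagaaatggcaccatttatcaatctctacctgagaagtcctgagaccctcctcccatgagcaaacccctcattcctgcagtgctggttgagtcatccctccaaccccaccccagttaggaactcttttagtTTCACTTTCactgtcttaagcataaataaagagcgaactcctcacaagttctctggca
Gbp7, chr3:142530086-142530335, plus strand: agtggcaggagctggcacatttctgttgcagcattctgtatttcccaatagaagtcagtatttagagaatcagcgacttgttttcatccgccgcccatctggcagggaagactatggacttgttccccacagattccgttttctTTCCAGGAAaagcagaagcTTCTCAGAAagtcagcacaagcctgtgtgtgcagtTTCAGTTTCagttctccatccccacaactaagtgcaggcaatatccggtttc
Igtp, chr11:58199306-58199555, plus strand: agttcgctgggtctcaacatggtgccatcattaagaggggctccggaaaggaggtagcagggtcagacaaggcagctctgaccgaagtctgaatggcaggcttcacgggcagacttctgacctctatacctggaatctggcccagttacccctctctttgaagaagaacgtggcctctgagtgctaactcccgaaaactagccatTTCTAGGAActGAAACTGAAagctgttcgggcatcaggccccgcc
Irf1, chr11:53769764-53770013, plus strand: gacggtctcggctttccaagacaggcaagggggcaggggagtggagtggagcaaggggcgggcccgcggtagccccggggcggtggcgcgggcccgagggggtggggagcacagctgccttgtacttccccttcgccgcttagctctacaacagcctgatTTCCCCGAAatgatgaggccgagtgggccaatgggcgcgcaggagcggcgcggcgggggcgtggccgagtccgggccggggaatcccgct
Cxcl9, chr5:92328080-92328329, minus strand: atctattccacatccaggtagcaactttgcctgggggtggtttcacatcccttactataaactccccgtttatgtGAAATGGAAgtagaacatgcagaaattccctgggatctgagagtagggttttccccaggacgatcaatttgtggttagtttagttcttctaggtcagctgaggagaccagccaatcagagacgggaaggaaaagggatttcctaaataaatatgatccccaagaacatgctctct

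In Gbp2 the match to GAAANNGAA lies on the reverse strand and begins 58 bases before the start site. Gbp7 has one at 52 bases and 2 matches to TTCNNNGAA at 106 and 87 bases before the start. In Igtp, another immunity-related GTPase, which had 0, 1, 32 and 23 UMIs in the monocytes, the matches lie at 34 and 45 bases. The upstream one of 2 Irf1 promoters has a match to TTCNNNGAA at 90 bases, and the Cxcl9 window holds one to GAAANNGAA at 175 bases. Of 21 genes of the IFN-γ list with a promoter in the RefSeq table, 16 (76.2%) held at least 1 of the 2 motifs, 13 of them GAAANNGAA (61.9%) and 9 TTCNNNGAA (42.9%). The antiviral list had 13 of 23 (56.5%), with GAAANNGAA in 47.8% and TTCNNNGAA in 17.4%. Over all 27025 genes the shares were 15.3%, 8.18% and 8.13%. A match is a description of letters and not of binding.

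Other genes of the pathway were low in counts. Irf1, an interferon-induced transcription factor, had 2, 5, 47 and 61 UMIs, and both of its intervals held 0. Ly6a, the surface protein Sca-1, had 5, 3, 120 and 121 UMIs, with log2 ratios of 1.16 (-0.11 to 2.80) and 2.88 (1.30 to 5.18). Socs1, a feedback inhibitor of JAK signalling, had 0, 0, 30 and 12 UMIs, and Cd274, the checkpoint ligand PD-L1, 0, 0, 12 and 19, which at this depth are not 2-fold above the floor. The receptor gene Ifngr1 had 3, 17, 22 and 29 UMIs, with log2 ratios of -0.56 (-2.29 to 1.83) and -1.68 (-2.60 to -0.73). Nos2, the inducible nitric oxide synthase, had no UMI in any of these monocytes.

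**Figure D4:**
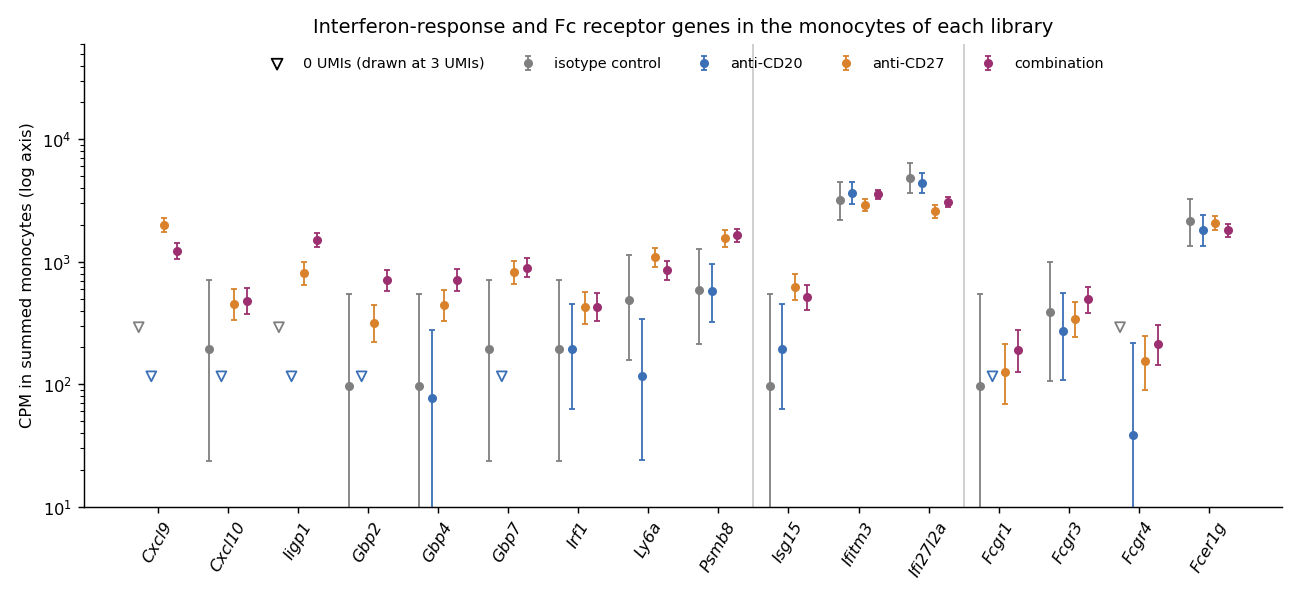
Level in CPM (log axis) of named interferon-induced, class I and Fc receptor genes in the monocytes of the 4 libraries, with exact Poisson 95% intervals and open triangles for genes with 0 UMIs, drawn at the level of 3 UMIs. Cxcl9 and Iigp1 are at 0 UMIs in both libraries without anti-CD27 and at 2013.9 and 804 CPM with anti-CD27, while Ifitm3 lies between 2890 and 3635 CPM in all 4.

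The genes that interferons of either type induce against viruses showed no such split as a list on CPM. The 30 antiviral genes summed to 123, 322, 1231 and 1776 UMIs, or 11974, 12451, 11117 and 12527 CPM. The log2 ratios were -0.11 (-0.38 to 0.17) for anti-CD27 against isotype control and 0.01 (-0.16 to 0.18) for the combination against anti-CD20, whereas under TMM they were 0.89 (0.63 to 1.17) and 0.44 (0.27 to 0.61), above 0. Of 29 genes, 4 were at least 2-fold higher and 4 lower in the first comparison, against 3.62% and 23.8% of all genes. In the second, 7 of 28 were higher and 5 lower, against 9.78% and 17.1%. Over genes with at least 20 UMIs the shares higher were 14.9% and 16.9% in the 2 comparisons, and the shares lower 12.4% and 8.42%.

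Single members went different ways. Isg15, a ubiquitin-like protein, had 1, 5, 69 and 73 UMIs, with log2 ratios of 2.68 (0.15 to 8.00) and 1.41 (0.13 to 3.08). Ifitm3, which blocks virus entry, stood at 3213, 3635, 2890 and 3555 CPM. Ifi27l2a stood at 4868, 4408, 2574 and 3068 CPM, a log2 ratio of -0.92 (-1.36 to -0.46) with anti-CD27 that turns to 0.08 under TMM.

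Genes of MHC class I and peptide loading were higher in the libraries with anti-CD27, by less than the IFN-γ list. The 16 listed genes in the table summed to 14895, 19217, 26668 and 24546 CPM. The log2 ratios in the 2 main comparisons were 0.84 (0.61 to 1.08) and 0.35 (0.22 to 0.49), or 1.84 and 0.78 under TMM. Anti-CD20 alone also exceeded isotype control, by 0.37 (0.10 to 0.64), or 0.83 under TMM. In each of the 2 main comparisons 6 of 16 were at least 2-fold higher and 0 lower. Over all genes 3.62% were higher and 23.8% lower in the first, and 9.78% and 17.1% in the second. Over genes with at least 20 UMIs the shares higher were 14.9% and 16.9%, and the shares lower 12.4% and 8.42%. The immunoproteasome subunits were among them. Psmb8 stood at 584, 580.0, 1553 and 1643.5 CPM, log2 ratios of 1.41 and 1.5. Psmb10 had 0, 7, 83 and 100 UMIs, at least 2.57-fold higher with anti-CD27 and with a log2 ratio of 1.38 (0.29 to 2.73) in the combination. The light chain B2m stood at 4186, 5413, 7830 and 7745 CPM. The heavy chain gene H2-D1, one of a family of near-identical genes, stood at 4575.5, 6728, 6213 and 5473.5 CPM, so that its ratio was 0.44 in the first comparison and -0.30 in the second, which TMM turns to 0.13.

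Genes listed for MHC class II, which presents peptides to CD4 T cells, were low in the isotype control monocytes and high in the other 3 libraries, anti-CD20 included. Besides chain, loading and chaperone genes, the list held Ciita, also in the IFN-γ list, and Ctss, also in the lysosome list. The 9 genes summed to 101, 889, 2864 and 3917 UMIs, or 9833, 34375, 25864 and 27629 CPM. The log2 ratio was 1.40 (1.11 to 1.70) for anti-CD27 against isotype control and 1.81 (1.51 to 2.12) for anti-CD20 against isotype control. For the combination against anti-CD20 it was -0.32 (-0.42 to -0.21), a direction that turns to 0.11 under TMM and to 0.19 without 1 anti-CD20 cell.

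A few cells decided these sums in the small libraries. In the isotype control, 61 of the 101 UMIs lay in 1 barcode that also carried B cell genes and had no Lyz2. In the anti-CD20 library 361 of 889 lay in 1 barcode with 8 Ccr2, 4 Lyz2 and 0 Ly6c2 UMIs. Without the 17 barcodes the ratio of anti-CD27 to isotype control was 2.98 (2.53 to 3.47) and that of anti-CD20 to isotype control 3.07 (2.61 to 3.56), and H2-Aa, the class II alpha chain, had 0 UMIs in 7 isotype control monocytes. Those 7 monocytes held 40 UMIs of the list, of which H2-Ab1 had 4, Cd74 2 and H2-Eb1 1. Most of the 40 thus came from other members of the list.

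Class II also varied from cell to cell within each library. The 9 genes took a median of 0.497%, 1.23%, 2.82% and 2.49% of a monocyte's UMIs, with ranges of 0.259 to 5.05%, 0.0867 to 8.76%, 0 to 7.20% and 0 to 7.29%. At least 1% was reached by 2 of 8, 6 of 11, 28 of 43 and 32 of 50 cells. Between 0.5 and 2% lay 3, 2, 6 and 12 cells. H2-Aa was found in 12.5%, 72.7%, 81.4% and 82.0% of the monocytes, against 12.2%, 13.6%, 15% and 7.09% of T cells at the depths given above. After thinning to 500 UMIs the monocyte shares were 14.3%, 54.5%, 62.5% and 64.0%.

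**Figure D5:**
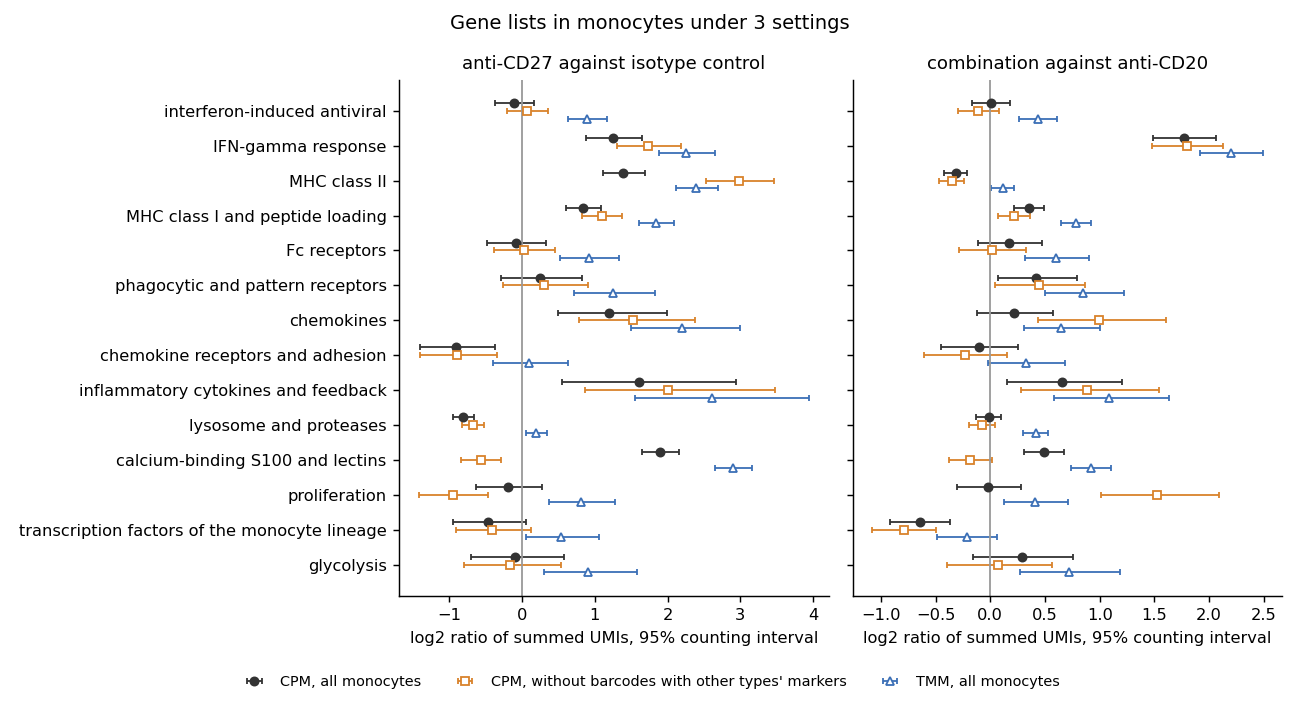
Log2 ratio of the summed UMIs of 14 gene lists in the monocytes, for anti-CD27 against isotype control and for the combination against anti-CD20, with 95% counting intervals, for CPM of all monocytes, CPM without the barcodes that carry other cells' genes, and TMM scaling. The IFN-γ list lies at 1.25 and 1.77 on CPM of all monocytes, and the S100 and lectin list moves from 1.90 to -0.57 without those barcodes.

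On CPM, Fc receptor genes as a list stayed within counting error in both main comparisons. The 7 genes summed to 5452, 4485, 5138.5 and 5057 CPM, with log2 ratios of -0.09 (-0.48 to 0.34) and 0.17 (-0.11 to 0.47), whereas under TMM they were 0.92 (0.52 to 1.34) and 0.60 (0.32 to 0.90), above 0. At least 2-fold higher were 0 of 7 in the first comparison, against 3.62% of all genes, and 1 of 7 in the second, against 9.78%. Over genes with at least 20 UMIs the shares higher were 14.9% and 16.9%. Fcer1g, the signalling chain shared by activating Fcγ receptors, stood at 2142, 1817, 2068 and 1806 CPM, and Tyrobp, a related adaptor, at 2628.5, 1933, 2059 and 1961.

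The receptors themselves rested on few UMIs. Fcgr1, the high-affinity IgG receptor, had 1, 0, 14 and 27 UMIs, found in 12.5%, 0%, 25.6% and 26.0% of monocytes against 0%, 0.8%, 0% and 0.709% of T cells. The isotype control value is 1 of 8 cells. After thinning to 500 UMIs, Fcgr1 was found in 0%, 0%, 7.5% and 2.0% of monocytes and in no T cell. Fcgr4, an activating receptor for IgG2 antibodies, had 0, 1, 17 and 30 UMIs, with a log2 ratio of 2.45 (-0.14 to 7.80) in the combination against anti-CD20. Fcgr3 had 4, 7, 38 and 70 UMIs, and the inhibitory receptor Fcgr2b 0, 4, 19 and 35. In the combination against anti-CD20 the level of Fcgr1 was at least 1.64-fold higher, and the counting intervals of Fcgr3, 0.87 (-0.25 to 2.23), and Fcgr4 held 0 while allowing large differences.

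Inflammatory genes were higher in the libraries with anti-CD27, on few UMIs. The 16 genes of cytokines and feedback in the table summed to 7, 35, 231 and 303 UMIs, or 681.5, 1353, 2086 and 2137 CPM, with log2 ratios of 1.61 (0.55 to 2.95) and 0.66 (0.15 to 1.21). Anti-CD20 against isotype control gave 0.99 (-0.20 to 2.41), an interval that holds 0 but a larger value than that of the combination over anti-CD20. Il1b, a fever-inducing cytokine, had 0, 3, 66 and 50 UMIs, at least 2.04-fold higher with anti-CD27 and with a log2 ratio of 1.60 (-0.03 to 3.93) in the combination. Tnfaip2, a TNF-induced gene, had 2, 3, 49 and 102 UMIs, with a log2 ratio of 2.63 (1.05 to 4.93) in the combination.

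The chemokine list gave 1.19 (0.50 to 1.99) and 0.22 (-0.12 to 0.57), and the second became 0.99 (0.44 to 1.60) without the 17 barcodes. Cxcl9 and Cxcl10 belong to both this list and the IFN-γ list. With anti-CD27, Cxcl9 alone held 223 of the list's 419 UMIs, against 0 of 17 with isotype control. In the combination without the 17 barcodes, Cxcl9 held 175 and Cxcl10 68 of 377 UMIs. The list without these genes was not summed. Of the Ccl5 UMIs, which encode a chemokine that NK and T cells also make, 45 of 47 in the anti-CD20 library lay in 1 barcode and 104 of 152 in the combination in another. Fpr2, a receptor for bacterial formyl peptides that neutrophils also use, had 0, 1, 58 and 48 UMIs. Its log2 ratio in the combination was 3.13 (0.58 to 8.46). Ctsc, a protease that activates granule enzymes, stood at 389, 541, 777 and 1545 CPM, with a log2 ratio of 1.51 (0.74 to 2.41) in the combination.

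Other lists gave smaller or unstable values. Phagocytic and pattern receptors gave 0.25 (-0.28 to 0.83) and 0.42 (0.07 to 0.79), and glycolysis genes -0.09 (-0.70 to 0.58) and 0.29 (-0.15 to 0.76). Transcription factors of the lineage gave -0.47 (-0.95 to 0.05) and -0.65 (-0.91 to -0.37), which TMM moves by the shifts above. Lysosome genes gave -0.80 (-0.95 to -0.66) and -0.01 (-0.13 to 0.10), and chemokine receptors and adhesion genes -0.90 (-1.40 to -0.37) and -0.10 (-0.45 to 0.26), of which the first values turn to 0.20 and 0.10 under TMM. Lyz2 alone stood at 30179, 15003, 13257 and 15031 CPM.

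Calcium-binding S100 and lectin genes gave 1.90 and 0.49, and -0.57 and -0.18 without the 17 barcodes. S100a8, a subunit of calprotectin, had 2, 6, 2466 and 558 UMIs in all monocytes and 1, 6, 64 and 116 without them. Proliferation genes gave -0.19 (-0.63 to 0.27) and -0.02 (-0.30 to 0.28), but -0.95 (-1.42 to -0.46) and 1.53 (1.01 to 2.09) without the 17. Mki67, a marker of cycling cells, had 0, 13, 29 and 67 UMIs, and the 13 lay in 1 anti-CD20 barcode with B cell genes.

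Over all genes with at least 20 UMIs, 159 of 1065 (14.9%) were at least 2-fold higher with anti-CD27 than with isotype control and 132 (12.4%) lower. TMM made these 451 and 12. In the combination against anti-CD20, 283 of 1675 (16.9%) were higher and 141 (8.42%) lower, or 506 and 52 under TMM. In the anti-CD27 comparison 6 of the 10 genes with the largest ratios were neutrophil or basophil genes. The same library held 146 UMIs of another of the 10, 1100001G20Rik, of which 119 lay in 1 barcode, and this gene stood at 1780 CPM in mature neutrophils against 12.6 CPM in the 95 monocytes. Camp had 947 UMIs with anti-CD27, of which 835 lay in 1 barcode, Ngp 798 with 663 in 1, and Mcpt8, a basophil protease, 217 with 215 in 1. Without the 17 barcodes the 10 were H2-Aa, Cxcl9, AW112010, Iigp1, Psmb10, Cxcl10, Il1b, Serpina3g, Gbp4 and Cap1. Against a level of 3 UMIs, Cxcl10 and Il1b were 1.985-fold higher, Serpina3g 1.742-fold, Gbp4 1.702-fold and Cap1 1.621-fold, all under 2-fold. The isotype control UMIs of Cxcl10 and Gbp4 lay in the barcode left out there. In the combination comparison the 10 were Iigp1, Cxcl9, Gbp2b, Gbp7, Camp, Gbp2, Gm4951, Cxcl10, Gbp3 and F830016B08Rik. Every gene of these sets of 10 had 0 UMIs in the second library, so their order follows their UMIs in the first.

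Genes lower in the libraries with anti-CD27 included Apoe, the lipid carrier apolipoprotein E, with 12, 52, 8 and 12 UMIs, or 1168, 2011, 72.2 and 84.6 CPM. Its log2 ratios were -4.02 (-5.51 to -2.60) and -4.57 (-5.61 to -3.65). In the anti-CD20 library 33 of the 52 UMIs lay in 1 cell, and without the 17 barcodes the second ratio was -3.42 (-4.60 to -2.30). Crip1, a small zinc-binding LIM protein, stood at 5744, 3403, 1048 and 1495 CPM, with log2 ratios of -2.46 (-2.92 to -1.98) and -1.19 (-1.55 to -0.81). Fos, an immediate early transcription factor, stood at 487, 889, 135 and 84.6 CPM, with a log2 ratio of -3.39 (-4.53 to -2.33) in the combination. Cx3cr1, the fractalkine receptor of non-classical monocytes, had 4, 9, 3 and 1 UMIs.

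Anti-CD20 against isotype control could be compared for 243 genes with at least 20 UMIs, of which 30 (12.3%) were at least 2-fold higher and 14 (5.76%) lower. H2-Eb1, the class II beta chain, had the largest ratio of the named genes present in both, with 131 against 4 UMIs and a log2 ratio of 3.70 (2.31 to 5.6). Of the 131 UMIs, 63 lay in 1 cell. Without the 17 barcodes H2-Eb1 had 105 against 1 UMIs, 63 of the 105 in 1 cell, and a log2 ratio of 5.57 (3.06 to 10.89). Cd74 then had a larger ratio, 6.093 (4.227 to 9.145), on 301 against 2 UMIs, with 142 of the 301 in 1 cell. Ly6c1 gave -1.28 (-1.82 to -0.74) and Lyz2 -1.01 (-1.23 to -0.79). The IFN-γ list gave -0.50 (-0.97 to -0.02), a value that TMM brings near 0 and that was -0.27 (-0.81 to 0.28) without the 17 barcodes, an interval that holds 0.

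Between the combination and anti-CD27, 198 of 2437 genes (8.12%) were at least 2-fold higher in the combination and 103 (4.23%) lower. Lpl, lipoprotein lipase, had 27 UMIs in 11 combination cells and 0 with anti-CD27, at least 7.03-fold. Of the IFN-γ list, 3 of 30 were at least 2-fold higher and 2 lower, against 15.1% and 12.4% of the 6502 genes with at least 5 UMIs. The lower genes with the largest ratios, Mcpt8, Prss34, Ms4a1, Lcn2 and Retnlg, are markers of basophils, B cells and neutrophils, and 215 of the 217 Mcpt8 UMIs lay in 1 anti-CD27 barcode.

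The IFN-γ list was also high in other myeloid cells of the libraries with anti-CD27. In C1q macrophages it stood at 2821, 3567, 11931 and 21124 CPM, in mature neutrophils at 2230, 4757, 18310 and 18987, and in conventional dendritic cells at 3920, 3563, 7750 and 9422. In T cells it stood at 3468, 3504, 5385 and 5487 CPM. The macrophages, neutrophils and dendritic cells numbered 3 to 36 a library, and whether the monocytes' difference exceeded theirs was not tested.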

How the data were processed

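The authors deposited 1 table of raw UMI counts of 17252 genes over 3198 Drop-seq barcodes from 4 libraries. Per the labels and the study's methods, reads were made with bcl2fastq, aligned to mm10 with STAR 2.5.0a and counted as UMIs with Dropseq-tools. Columns named PBS were taken as the isotype control library. Barcodes with 300 to 3000 detected genes were kept. The monocyte rule, marker lists and the 14 gene lists (261 genes) were chosen with earlier results of these data known. Counts were summed over the monocytes of a library and divided by their total (CPM). Levels have exact Poisson intervals, ratios exact conditional binomial intervals, shares exact binomial (Clopper-Pearson) intervals and differences of shares Newcombe intervals, all at 95%. A count of 0 was set to 3 UMIs per library for bounds. Folds given with "at least" are such bounds and do not cover counting error in the other library. Genes were named by the markers, the lists' most counted members, and the 10 largest and smallest ratios (5 in the comparisons of anti-CD20 with isotype control and of the combination with anti-CD27) among genes with at least 20 UMIs and an interval without a ratio of 1, leaving out rule genes, immunoglobulin, haemoglobin, ribosomal and mitochondrial genes. Doublets were marked with Scrublet but kept. No p-value was computed, since each treatment had 1 library. Tools were Python 3.11.15, NumPy 2.4.6, pandas 2.3.3, SciPy 1.17.1, scanpy 1.11.5 and edgeR 4.0.16 (TMM factors only). The ratio intervals were tested on simulated data. The result of a single gene is not reported here.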

Additional observations from a re-analysis of the deposited data

Results flagged for a closer look

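In the monocytes, 7 results went one way for anti-CD27 against isotype control and the other way for the combination against anti-CD20, and with 1 library per treatment the difference between the 2 comparisons was not tested. The log2 ratios were 1.40 and -0.32 for the MHC class II list, 1.30 and -0.49 for Cd74, 1.71 and -0.39 for H2-Ab1, 3.17 and -0.51 for H2-Eb1, 0.44 and -0.30 for H2-D1, and -1.01 and 0.45 for Ly6c1. Atad2b gave -4.43 on 2 against 4 UMIs, and 0.48 as a bound against 0 UMIs. The class II values moved with single barcodes, since 1 barcode held 61 of 101 isotype control UMIs and another 361 of 889 anti-CD20 UMIs.

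Among barcodes with over 3000 genes, which the analysis left out, 3 with anti-CD27 and 3 with the combination met the monocyte rule, of 14 and 30 such barcodes. None of the 2 and 5 in the isotype control and anti-CD20 libraries did.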

How the results depend on the processing

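No paired analysis was possible because each treatment had 1 library, which also left no replicate to leave out. The share of monocytes, anti-CD27 minus isotype control, was 2.57 points when 6 UMIs over 3 genes were asked for and 2.78 after thinning to 500 UMIs. Leaving out barcodes with 2 or more UMIs of another type's markers (S100a8 and Bst2 included), which kept 4, 3, 10 and 7 monocytes, made it 0.836 and the combination minus anti-CD20 1.02. The number of genes compared also changed with the setting, so each count is given beside it. Genes at least 2-fold lower in anti-CD27 against isotype control numbered 132 of 1065 in the main setting. They were 223 of 1681 with no upper limit and 67 of 615 with 6 UMIs over 3 genes. The strict limit on other types' markers gave 9 of 83, leaving out the 17 barcodes 80 of 778, and TMM 12 of 1065. With at least 10 and 50 UMIs they were 447 of 2419 and 19 of 345. Without the cell with the most UMIs they were 52 of 1065. Higher genes numbered 16 of 83 with the strict limit, 451 of 1065 under TMM and 68 of 345 with at least 50 UMIs. For the combination against anti-CD20, higher genes numbered 17 of 119 with the strict limit and 506 of 1675 under TMM. With at least 10 and 50 UMIs they were 527 of 3334 and 80 of 560. Lower genes in these 4 settings numbered 30, 52, 454 and 19, and 48 of 1675 without the top cell. The IFN-γ list stood at 1.73 without the 17 barcodes and 2.25 under TMM in the first comparison, and at 2.24 with the strict limit and 2.20 under TMM in the second. Its median fell to 1.49 and 1.51 with a pseudocount of 50 CPM.

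Directions turned as follows (log2 ratios). In anti-CD27 against isotype control, TMM gave 0.083 for Ifi27l2a, 0.050 for S100a4, 0.10 for chemokine receptors and adhesion and 0.20 for lysosome genes. The strict limit gave 0.48 for Ifi27l2a and -0.79 for the S100 and lectin list, leaving out the 17 barcodes gave -0.57 for that list and -0.040 for Fpr2, a marker sum of 3 gave -0.30 for Cd74, and 1100001G20Rik was -0.11 without its top cell. In the combination against anti-CD20, 6 UMIs over 3 genes gave 1.59 for Ccl5, 0.077 for Cd74, 1.03 for H2-Ab1 and 0.33 for H2-Eb1. TMM gave 0.044 for H2-Ab1, 0.13 for H2-D1 and 0.11 for class II. Without the top cell, Camp was -0.70, Ccl5 3.73, H2-Ab1 0.26, H2-Eb1 0.19 and class II 0.19. Ccl5 was 0.56 without the 17 barcodes, and the S100 and lectin list -0.18, or -0.79 with the strict limit. In the combination against anti-CD27, the antiviral list was -0.36 with the strict limit and -0.082 without the 17 barcodes, and class II was -0.26 without the 17 barcodes, -0.018 under TMM, -0.029 as a mean over cells and -0.0040 without the top cell. The cause of these changes was not tested. The 8 isotype control monocytes and their 10272 UMIs limit every comparison with that library.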
